A study of Mus musculus with 8 samples.

Results

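CA1 pyramidal neurons are the excitatory output cells of the hippocampus proper, and the nuclei described here were picked out of 4 hippocampal single-nucleus RNA libraries by a short list of genes. A barcode counted as a CA1-rule nucleus when it held 500 or more genes, at least 4 unique molecular identifiers (UMIs, each standing for 1 captured RNA molecule) of Mpped1, Fibcd1 and Wfs1 together, and at least 1 of the vesicular glutamate transporter Slc17a7. It also had to hold fewer than 5 UMIs of the dentate granule cell genes Prox1, Trpc6 and C1ql2 and fewer than 6 of Gad1 and Gad2, which mark inhibitory neurons. The rule found 1539 nuclei among the 46752 hippocampal barcodes with 500 or more genes, and among 109826 barcodes of all 8 libraries. Levels of these 9 genes are therefore only described, and although they stayed in the fits over all genes, none of their tests is used here.

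The study profiled nuclei of anterior hippocampus and caudate putamen at 3 and 21 months. All animals were C57BL/6JN mice with no transgene or treatment named in the labels. Nuclei came from punches of the left hemisphere, and each library mixed equal numbers of sorted nuclei from 1 male and 1 female of the same age. Only the hippocampal libraries, 2 at 3 months and 2 at 21 months, entered the comparisons below. The labels do not say whether the 2 libraries of an age came from different animals, so the SDs and p-values measure the spread between these libraries, which may be technical. The comparison asks how expression in CA1 pyramidal neurons differs between young adult and old mice.

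CA1 pyramidal cells receive input from CA3 through the Schaffer collaterals and from the entorhinal cortex, and they project to the subiculum, entorhinal cortex and other forebrain targets. Their synapses are the textbook site of NMDA receptor-dependent long-term potentiation, and spatial and episodic memory in rodents depends on them. The cells also carry both corticosteroid receptors, and they lie next to the subiculum, whose pyramidal cells share much of their expression.

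The 3-month libraries gave 492 and 727 CA1-rule nuclei and the 21-month libraries 197 and 123. Their median depth was 22277 and 22456 UMIs at 3 months and 24915 and 23949 at 21 months, with medians of 4914 to 5100 genes. Summed over nuclei, the 4 libraries held 11647382, 17655724, 5064777 and 3122096 UMIs, so the 21-month sums were the shallower ones. No barcode was shared between the CA1-rule nuclei of any pair of libraries, and pairs of whole libraries shared 20 to 64. No CA1-rule nucleus had more than 5% mitochondrial UMIs. Scrublet, a doublet caller, marked 29, 72, 5 and 3 of these nuclei, with another threshold in the second library. Assigned by Xist and 4 Y-linked genes, female nuclei made up 73.6% and 56.6% of the sexed nuclei at 3 months and 44.9% and 79.5% at 21 months, an uneven mix within both ages.

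CA1-rule nuclei were a smaller share of hippocampal barcodes in both 21-month libraries. The share was 4.46% (95% exact binomial interval 4.08 to 4.86) and 3.60% (3.35 to 3.87) at 3 months. At 21 months it was 2.19% (1.90 to 2.51) and 1.88% (1.56 to 2.23). The groups did not overlap, with means of 4.03 ± 0.605% and 2.03 ± 0.221% (SD, n = 2). An exact two-sided permutation test gave p = 0.33, which is the smallest value that 2 libraries against 2 allow. The intervals cover counting error only, and how much of CA1 each punch held was not measured.

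Several CA1 markers that the rule did not use were higher in CA1-rule nuclei than in granule-rule nuclei, but not all were. Man1a, a Golgi mannosidase enriched in CA1, stood at 509 to 608 CPM (counts per 1000000 UMIs of the summed nuclei) in CA1-rule nuclei. It reached 7.28 to 24.2 CPM in 14967 granule-rule nuclei, chosen by the granule genes above with fewer than 4 UMIs of the CA1 genes. The 8 interneuron markers summed to 2671, 2199, 2586 and 2850 CPM in those nuclei, against 57.0, 65.7, 45.0 and 23.1 CPM in CA1-rule nuclei. Which cells that RNA came from was not tested, and the list holds Gad1 and Gad2, which both rules limited. Another class for comparison, 2704 CA3-rule nuclei with 3 or more UMIs of Iyd and Cpne4, was not pure, since Prox1 stood at 35.4 to 51.5 CPM in it, and had 98.0 to 142 CPM of Man1a. The orphan receptor Gpr161 stood at 65.0 to 81.3 CPM in CA1-rule nuclei against 1.17 to 3.74 CPM in granule-rule nuclei, and the POU factor Pou3f1 at 23.1 to 33.0 against 1.26 to 2.71 CPM. Spink8 and Lefty1, at 16.2 to 31.4 and 3.52 to 4.94 CPM, were also above their granule-rule ranges of 3.41 to 5.12 and 0.0859 to 0.323 CPM. Ndst4, a heparan sulfate enzyme, stood at 454 to 620 CPM in CA1-rule nuclei, at 179 to 322 CPM in granule-rule nuclei and higher still, at 1063 to 1219 CPM, in the CA1-rule nuclei with subiculum markers described below. The 4 markers of position within CA1 (Calb1, Dcn, Gpc3 and Grp) went the other way and summed to 24.5 to 36.4 CPM in CA1-rule, 39.7 to 69.4 CPM in CA3-rule and 99.4 to 149 CPM in granule-rule nuclei. Prox1, which both rules used, was at 3.16 to 9.06 CPM in CA1-rule and 277 to 314 CPM in granule-rule nuclei. These are descriptions of levels between classes, and the plot of unused markers shows 5 of them for every library.

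**Figure D1:**
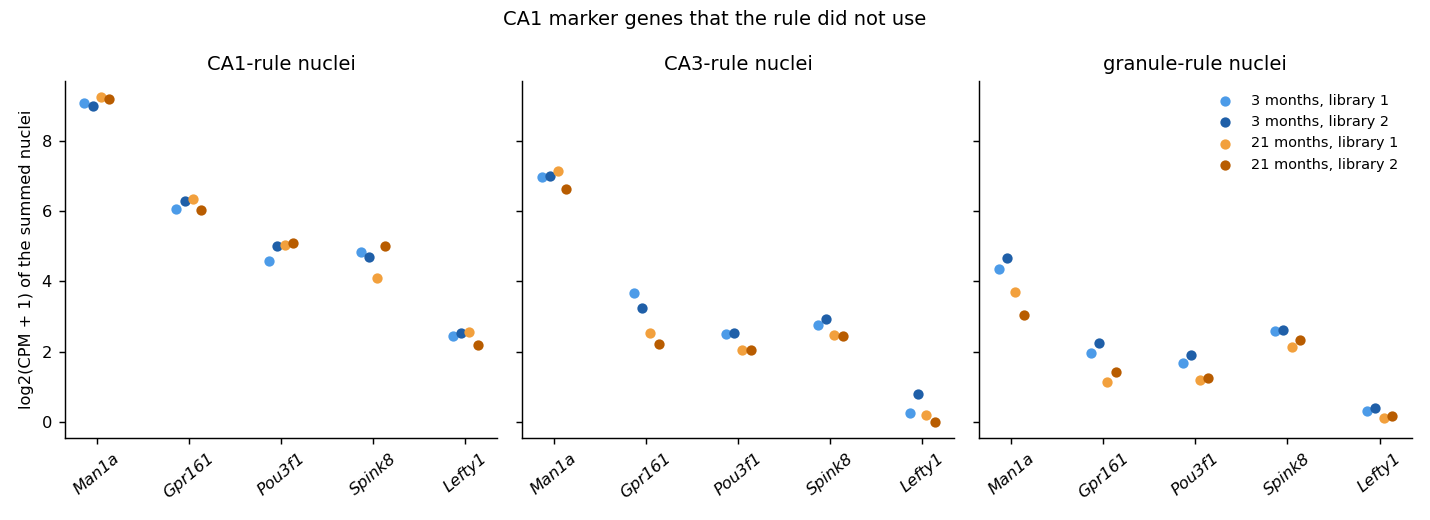
Levels of 5 CA1 marker genes that the rule did not use, as log2(CPM + 1) of the summed nuclei, in CA1-rule, CA3-rule and granule-rule nuclei; each point is a library, blue at 3 months and orange at 21 months. Man1a lies at 509 to 608 CPM in CA1-rule nuclei and at 7.28 to 24.2 CPM in granule-rule nuclei.

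Nuclei just inside and just outside the threshold had overlapping levels of the unused marker Man1a. With exactly 4 marker UMIs there were 133, 162, 53 and 33 nuclei, and with 3 there were 168, 230, 48 and 37 outside the rule. Man1a stood at 555 to 628 CPM just inside and at 578 to 678 CPM just outside. Mpped1, which the rule used, was 134 to 163 CPM inside and 110 to 135 CPM outside.

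A minority of the nuclei carried subiculum markers. In each library, 10.8%, 13.6%, 12.7% and 13.0% of the nuclei (53, 99, 25 and 16) carried 3 or more UMIs of the subiculum markers Fn1, Nts, Slc17a6, Teddm3 and Dlk1. Man1a, which neither choice used, stood at 235 to 311 CPM in these nuclei and at 562 to 682 CPM in the other CA1-rule nuclei. The split used Fn1 and the CA1 rule used Mpped1, Fibcd1 and Wfs1, so their levels are descriptions only. These nuclei held Mpped1 at 197 to 239 CPM, as high as the other CA1-rule nuclei at 190 to 215 CPM. Fibcd1 was at 0 to 5.26 CPM in them against 37.9 to 42.1 CPM in the others, and Wfs1 at 1.74 to 7.82 against 26.7 to 43.1 CPM. Fn1, an extracellular matrix protein, reached 164 to 209 CPM in them and 0 to 2.13 CPM in the others. They are called subiculum-marker nuclei below.

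With some overlap, 6.91%, 11.4%, 6.09% and 5.69% of the nuclei carried 1000 CPM or more of granule, interneuron, glial or endothelial marker genes. Leaving out both kinds left 408, 557, 161 and 101 core nuclei, and results that rest on the removed ones are given with and without them. Both cuts were chosen after the data were seen. Among the defining markers of other classes, no list was at 0 in CA1-rule nuclei. The granule list holds Prox1, Trpc6 and C1ql2, and the interneuron list holds Gad1 and Gad2. The rules used these genes, so the sums of both lists are descriptions. The 8 granule markers summed to 142 and 190 CPM at 3 months and 141 and 123 CPM at 21 months, where granule-rule nuclei had 3488 to 3763 CPM. Of them Maml2 was called lower with age (57.5 and 68.9 to 30.8 and 37.5 CPM, log2 fold change -0.83, adjusted p = 0.0128), and in core nuclei its value was -0.51 and not called (adjusted p = 0.314). The 6 astrocyte markers summed to 57.0 and 68.0 CPM at 3 months and to 40.7 and 32.7 CPM at 21 months, and of them Slc1a3 was called lower (log2 fold change -0.90, adjusted p = 0.0342), with -0.53 and no call in core nuclei (adjusted p = 0.524). The 7 CA3 markers summed to 259 and 287 CPM and then to 176 and 179 CPM (248 and 263 against 165 and 165 CPM in core nuclei), and 5 of the 6 tested were lower in both 21-month libraries (83.3%, against 31.8% of all tested genes). The 5 neocortex markers summed to 120 and 99.9 CPM and then to 83.3 and 76.9 CPM. The 8 interneuron markers summed to 57.0 and 65.7 CPM and then to 45.0 and 23.1 CPM. The 6 microglia markers summed to 59.1 and 66.2 CPM and then to 52.7 and 57.7 CPM. Other lists overlapped between ages. The 6 oligodendrocyte markers summed to 85.6 and 115 CPM and then to 91.8 and 85.8 CPM. The 4 endothelial markers, all with a log2 fold change above 0, summed to 25.0 and 22.7 CPM and then to 37.5 and 16.7 CPM. The 5 subiculum markers summed to 47.2 and 56.3 CPM and then to 53.7 and 48.4 CPM. In core nuclei the granule markers summed to 93.6 and 127 CPM at 3 months and 99.0 and 106 CPM at 21 months. Granule, interneuron and glial markers, Maml2 and Slc1a3 among them, took part in choosing core nuclei, so their core values are descriptions.

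Between 3 and 21 months, 68 of 14373 tested genes changed in CA1-rule nuclei (0.473%, edgeR quasi-likelihood test on library sums, Benjamini-Hochberg adjusted p under 0.05). Of these, 33 were higher (0.230%) and 35 lower (0.244%) at 21 months. The risers included the long noncoding RNAs Gm48530 and Gm40653, the zinc finger factor Tshz3, the RNA-binding protein Lin28b and the mineralocorticoid receptor Nr3c2. The fallers included the orexin receptor Hcrtr2, the growth factor Nrg1, the NMDA receptor subunit Grin3a and the proteoglycan Gpc5. None of the 68 overlapped between ages in CPM. Of all tested genes, 12% were higher in both 21-month libraries than in either 3-month library and 31.8% were lower. CPM leave out the TMM library scaling of the fits. Its factors were 1.011 and 1.044 at 3 months and 0.973 and 0.974 at 21 months. Counts of genes lower in both 21-month libraries, here and elsewhere, are therefore raised. In the scaled fit 6944 genes lay above 0 and 7429 below. Without the first and second 3-month libraries 208 and 143 genes were called. Without the first 21-month library 21 were called, 12 of them among the 68, and without the second 124 were called, 48 of them among the 68. Each fit without a library, here and below, leaves 1 library in an age, so its spread between libraries comes from the other age alone. In core nuclei 77 genes were called (0.569% of 13536), 41 of them higher (0.303%) and 36 lower (0.266%). They included 27 of the 33 risers and 22 of the 35 fallers.

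**Figure D2:**
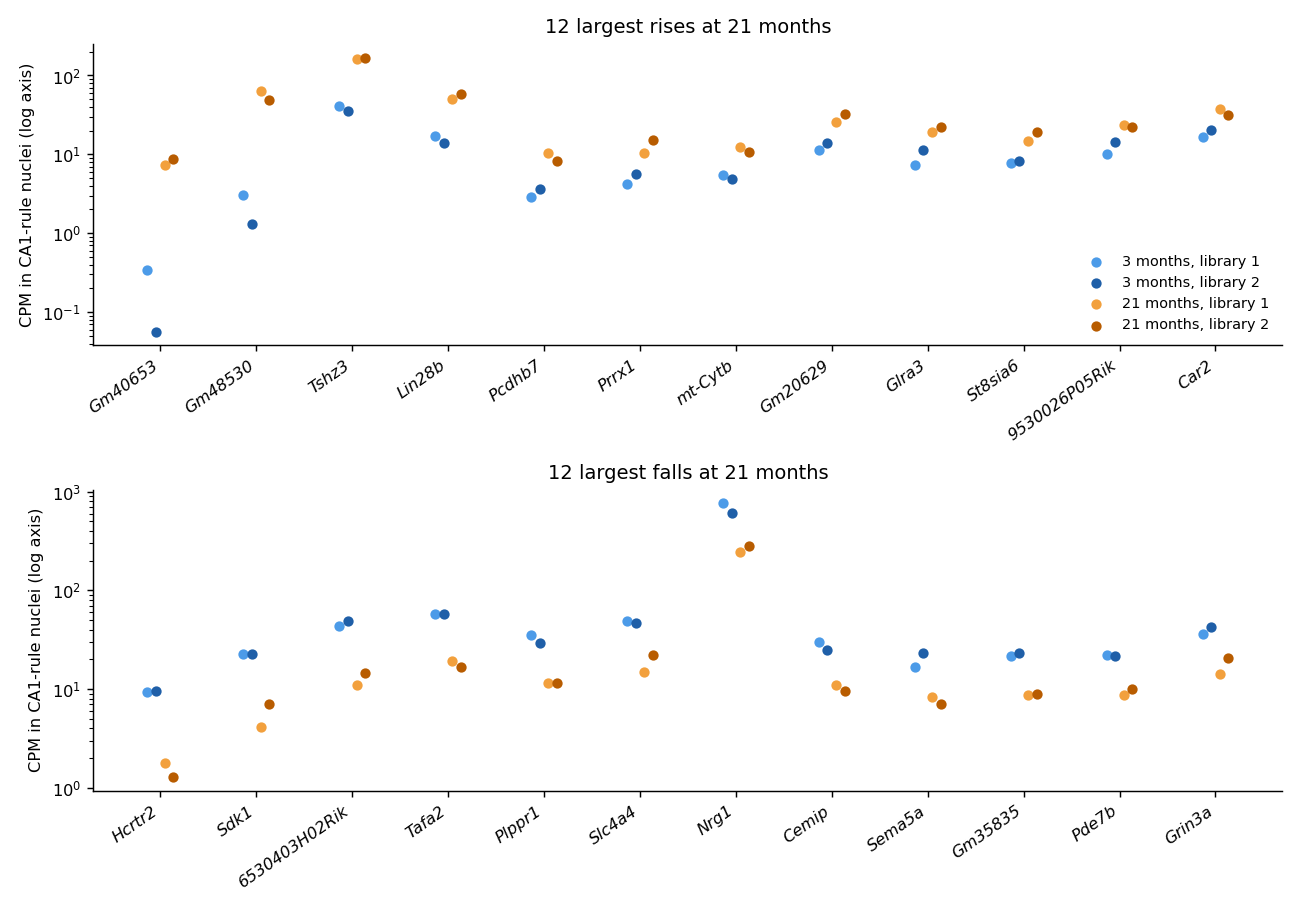
CPM in CA1-rule nuclei (log axis) of the 12 genes with the largest called rise (top) and the 12 with the largest called fall (bottom) among genes with a mean of 5 CPM or more in the higher group, 1 point per library. In each gene both orange points (21 months) lie on the same side of both blue points (3 months), from Gm40653 at 0.343 and 0.0566 against 7.31 and 8.65 CPM to Grin3a at 36.4 and 42.2 against 14.2 and 20.5 CPM.

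The largest rises were in a pair of neighbouring long intergenic RNAs on chromosome 13. Gm48530 (GRCm38, 3325296 to 3358455, minus strand) stood at 3.09 and 1.30 CPM at 3 months and at 64.2 and 48.4 CPM at 21 months. Gm40653 (3273235 to 3282998, plus strand) stood at 0.343 and 0.0566 CPM, which is 4 and 1 UMIs, and then at 7.31 and 8.65 CPM, or 37 and 27 UMIs. Both were close to absent from the young sums and plainly present in both old ones. Their log2 fold changes were 4.87 (SE 0.30, adjusted p = 5.28e-04) and 5.49 (SE 0.53, adjusted p = 4.94e-04), the second resting on those 5 young UMIs. Under every alternative in which they were tested they were called, apart from male nuclei alone. Gm48530 also rose in granule-rule nuclei, from 22.4 and 20.1 to 182 and 178 CPM, and its log2 fold change was 1.75 larger in CA1-rule nuclei (SE 0.31, adjusted p = 0.0433). Subiculum-marker nuclei had no UMI of Gm48530 in either 21-month library, which allows up to 3.57 and 5.86 CPM, while the remaining CA1-rule nuclei had 76.9 and 57.8 CPM. The test of that difference in age effect gave an adjusted p of 0.0843.

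Lin28b (chromosome 10, 45376620 to 45486395) encodes an RNA-binding protein that blocks maturation of let-7 microRNAs and is best known from early development. It stood at 17.1 and 13.8 CPM at 3 months and at 50.5 and 58.0 CPM at 21 months. The groups did not overlap (log2 fold change 1.89, SE 0.14, adjusted p = 1.00e-04, and 2.05 with adjusted p = 3.55e-05 in core nuclei). The median nucleus had 0 UMIs of Lin28b in both young libraries and 0.388 and 0.450 per 10000 UMIs in the old ones. Granule-rule nuclei went from 4.76 and 4.77 to 17.1 and 19.0 CPM. The difference between the classes was -0.06 on the log2 scale (adjusted p = 0.952), while against CA3-rule nuclei the CA1 rise was larger by 1.03 (adjusted p = 0.00450).

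Tshz3 (chromosome 7, 36698118 to 36773553), a teashirt zinc finger factor of projection neurons, rose from 41.3 and 35.9 to 161 and 168 CPM (log2 fold change 2.18, SE 0.10, adjusted p = 4.14e-07). Its level was highest in the subiculum-marker nuclei, where it went from 163 and 140 to 789 and 837 CPM. The other CA1-rule nuclei had 20.2 and 14.2 CPM at 3 months and 36.5 and 37.2 CPM at 21 months. The rise was larger in the subiculum-marker nuclei by the test of the difference (adjusted p = 7.38e-05), which called 86 of 12533 genes (0.686%), 20 higher (0.160%) and 66 lower (0.527%). Without the subiculum-marker nuclei the log2 fold change of Tshz3 was 1.20 (adjusted p = 0.00691), and in core nuclei it was 1.28 and the call was lost (adjusted p = 0.0551).

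Other called risers also had their highest levels in the subiculum-marker nuclei. Kctd8, an auxiliary subunit of GABA-B receptors, was called in all CA1-rule nuclei (97.2 and 106 to 149 and 165 CPM, log2 fold change 0.70, adjusted p = 0.00271) but not in core nuclei, where its log2 difference was 1.00 (SE 0.31, adjusted p = 0.357). It stood at 529 and 473 against 720 and 667 CPM in subiculum-marker nuclei and at 22.3 and 29.0 against 35.7 and 66.7 CPM in the others. Brinp3, a neural gene called higher in all CA1-rule nuclei (log2 fold change 0.42, adjusted p = 0.0278) but at -0.20 in core nuclei (adjusted p = 0.614), went from 1882 and 1587 to 2297 and 2295 CPM in subiculum-marker nuclei and from 79.7 and 81.3 to 61.5 and 75.5 CPM in the others. Glra3, a glycine receptor subunit, went from 7.30 and 11.4 to 19.3 and 22.1 CPM in all CA1-rule nuclei and was still called in core nuclei (log2 fold change 1.55, adjusted p = 0.0283). Its adjusted p was 0.231 without the first 21-month library and 0.0964 without the second. Astn2, which traffics surface proteins at synapses, went from 2350 and 2380 to 3028 and 2655 CPM in subiculum-marker nuclei and from 483 and 431 to 711 and 701 CPM in the others, with a core log2 fold change of 0.73 (adjusted p = 0.00177).

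**Figure D3:**
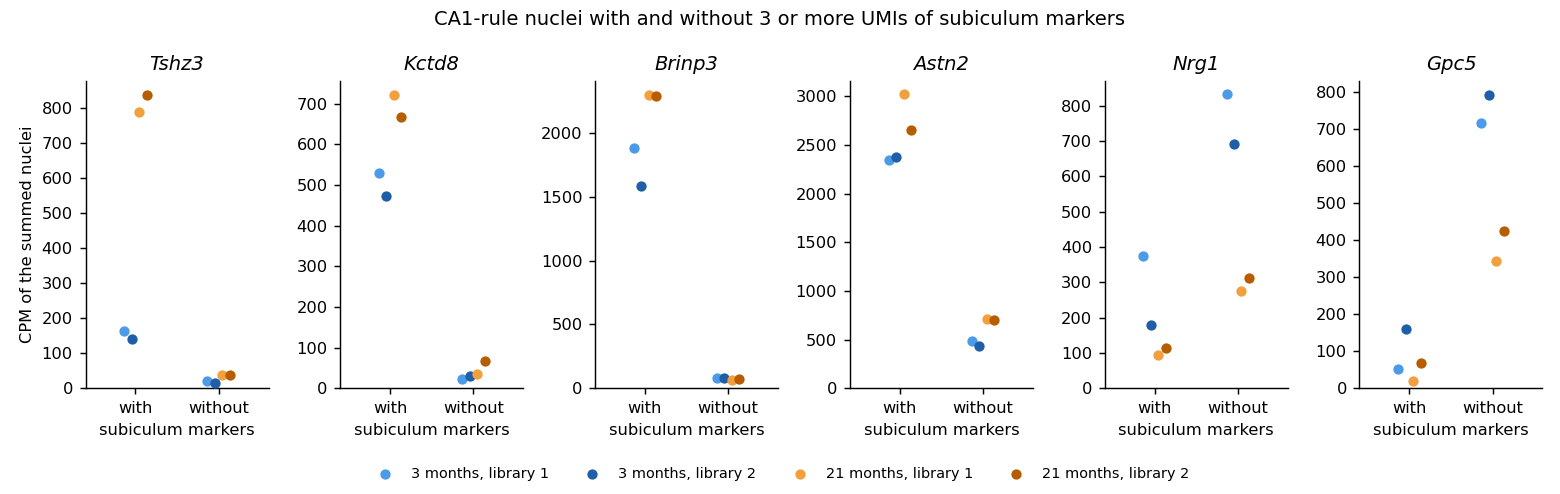
CPM of 6 genes in CA1-rule nuclei with and without 3 or more UMIs of subiculum markers, 1 point per library (53, 99, 25 and 16 nuclei with markers). Tshz3 reaches 789 and 837 CPM at 21 months only on the left of its panel, and Nrg1 and Gpc5 fall from 833 and 692 to 274 and 311 CPM and from 716 and 790 to 344 and 425 CPM on the right.

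The subiculum-marker nuclei themselves gave 63 called genes of 9263 (0.680%), of which 58 were lower at 21 months (0.626%) and 5 higher (0.0540%). The fallers with the smallest p were genes that the other CA1-rule nuclei held at much higher levels. Zbtb20, a hippocampal transcription factor, went from 203 and 322 to 38.1 and 39.1 CPM in them and stood at 1828 to 2172 CPM in the others. Hs3st4, a heparan sulfate sulfotransferase, went from 60.4 and 75.6 to 5.95 and 3.91 CPM against 391 to 554 CPM. Cacnb2, a calcium channel subunit, went from 415 and 336 to 169 and 149 CPM against 2946 to 3146 CPM. Each stood higher in the other CA1-rule nuclei, and the part of RNA from those nuclei in these falls was not tested.

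Among the fallers at 5 CPM or more, Nrg1 had the largest difference from granule-rule nuclei. Neuregulin 1 (chromosome 8, 31814551 to 32884029) is a ligand of ErbB receptors, through which excitatory neurons signal to interneurons and glia. It stood at 765 and 603 CPM at 3 months and at 244 and 279 CPM at 21 months (log2 fold change -1.32, SE 0.13, adjusted p = 0.00434). The median nucleus held 4.46 and 4.25 UMIs of Nrg1 per 10000 in the young libraries and 0.704 and 0.634 in the old ones. In granule-rule nuclei the gene moved the other way, from 917 and 834 to 2108 and 2041 CPM. The difference in age effect was -2.61 on the log2 scale (adjusted p = 1.70e-12). In core nuclei the fall was 1.34 on the log2 scale in size and was called with adjusted p = 1.92e-04. The call was lost without the first 21-month library and with equal numbers of nuclei (adjusted p = 0.624). It was also lost in female and in male nuclei alone (adjusted p = 0.327 and 0.960).

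Gpc5, a glypican that binds growth factors at the cell surface, fell from 618 and 681 to 290 and 366 CPM (log2 fold change -0.91, SE 0.10, adjusted p = 0.00219). The core nuclei gave -0.96 (adjusted p = 1.92e-04). Its median per nucleus was 4.26 and 4.93 UMIs per 10000 at 3 months and 0.972 and 1.79 at 21 months. The call was kept when either 21-month library was left out and lost when the rule asked for 6 or more marker UMIs (adjusted p = 0.0897). The difference from granule-rule nuclei was -0.50 (adjusted p = 0.887). 6530403H02Rik, a long intergenic RNA on chromosome 3 (120604109 to 120886733, minus strand), fell from 43.5 and 48.4 to 10.9 and 14.4 CPM. Its fall of 1.82 on the log2 scale (SE 0.15, adjusted p = 1.54e-04) was called under every alternative fitted other than male nuclei alone. Granule-rule nuclei had 112 and 109 CPM at 3 months and 130 and 131 CPM at 21 months, and the difference was -2.13 (adjusted p = 1.45e-09).

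Hcrtr2 (chromosome 9, 76225880 to 76323856), a receptor for the wakefulness peptide orexin, fell from 9.36 and 9.63 CPM to 1.78 and 1.28 CPM. These are 109 and 170 UMIs at 3 months and only 9 and 4 at 21 months. The fall was 2.50 on the log2 scale (SE 0.31, adjusted p = 0.00324), and 2.75 in core nuclei. It was not called when nuclei were thinned to equal depth (adjusted p = 0.319). Thinning kept 4000 UMIs per nucleus, where medians were 22277 to 24915, so the thinned sums had less power to call any gene. The adjusted p was 0.0733 without the first 21-month library. Against CA3-rule nuclei the fall was larger by 2.19 (adjusted p = 0.0492), and against granule-rule nuclei, where the gene was at or under 1.89 CPM, the difference of -1.26 was not called (adjusted p = 0.407). Gm35835, a long intergenic RNA on chromosome 9, fell from 21.7 and 23.2 to 8.69 and 8.97 CPM (log2 fold change -1.27, adjusted p = 0.00434, and 0.0961 without the first 21-month library). In granule-rule nuclei it was near absent but was also called lower (0.983 and 1.04 to 0.200 and 0.261 CPM, adjusted p = 0.0232), and the difference between the classes was 0.81 (adjusted p = 0.526).

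Several of the other fallers stood at higher levels in surrounding nuclei than in CA1-rule nuclei. Tafa2, a secreted chemokine-like protein, fell from 58.1 and 57.0 to 19.3 and 16.7 CPM (log2 fold change -1.58, SE 0.13, adjusted p = 1.32e-04). Granule-rule nuclei held it at 1614 to 1893 CPM. The cell adhesion protein Sdk1 fell from 22.5 and 22.7 to 4.15 and 7.05 CPM (-2.01, adjusted p = 0.00129), against 35.4 to 48.1 CPM in granule-rule nuclei. Shisa9, an auxiliary subunit of AMPA receptors, fell from 95.6 and 90.1 to 39.1 and 41.6 CPM (-1.13, adjusted p = 3.06e-04), against 814 to 917 CPM. Each of these 3 was called in core nuclei and with either 21-month library left out. None kept its call when nuclei were thinned to 4000 UMIs each, with less power (adjusted p = 0.130, 0.122 and 0.0681). Shisa9 also lost it in female nuclei alone (0.140).

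The remaining large fallers lost their call in some settings. Slc4a4, a sodium bicarbonate cotransporter of astrocytes and some neurons, and Sema5a, an axon guidance protein, fell by 1.34 and 1.30 on the log2 scale (adjusted p = 0.00276 and 0.0221). In core nuclei the values were -0.86 and -1.05 (adjusted p = 0.116 and 0.182), and without the first 21-month library -1.03 and -1.45 (0.0523 and 0.217). Granule-rule nuclei held Slc4a4 at 690 to 882 CPM and Sema5a at 755 to 863 CPM, where CA1-rule nuclei had at most 49.0 and 23.3 CPM. Plppr1, a lipid phosphatase-related protein of growing axons, fell by 1.42 (adjusted p = 0.00294), Cemip, which breaks down hyaluronan, by 1.30 (adjusted p = 0.00585), and the phosphodiesterase Pde7b by 1.18 (adjusted p = 0.00815). These 3 were called in core nuclei, with adjusted p of 0.00287, 0.0122 and 0.0392, but not without the first 21-month library (0.0809, 0.0896 and 0.197). Pde7b also lost its call with doublets removed, where its value was -0.97, and with equal numbers of nuclei (adjusted p = 0.191).

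Most genes at higher levels outside CA1 had a log2 fold change below 0. The ratio of the level in the remaining hippocampal nuclei to that in CA1-rule nuclei was taken at 3 months, since a ratio that includes 21 months rises with a fall itself. It still shares the 3-month CA1 level with the age change, so the values are a description. Of the 10702 tested genes with a mean of 5 CPM or more in either age, 717 (6.70%) had a ratio over 2. They held 18 of the 34 fallers and 9 of the 33 risers, with a median log2 fold change of -0.17 against 0.00 over all 10702. For the 58 genes with a ratio over 8 the median was -0.62, and 89.7% lay below 0. In core nuclei those medians were -0.15 and -0.57. The part of RNA from other cells in the falls was not tested. The ratio was 1.21 for Nrg1, 1.56 for Gpc5, 0.836 for Hcrtr2 and 0.240 for Gm35835, and 21.4 for Tafa2, 26.4 for Sema5a and 15.4 for Slc4a4. Among risers it was 7.01 for Gm40653, 6.69 for Gm48530, 6.23 for 9530026P05Rik, 1.30 for Tshz3 and 0.970 for Lin28b. With all 4 libraries in the ratio, Nrg1 stood at 2.40 and Gpc5 at 2.46, and 22 fallers and 8 risers lay over 2.

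**Figure D4:**
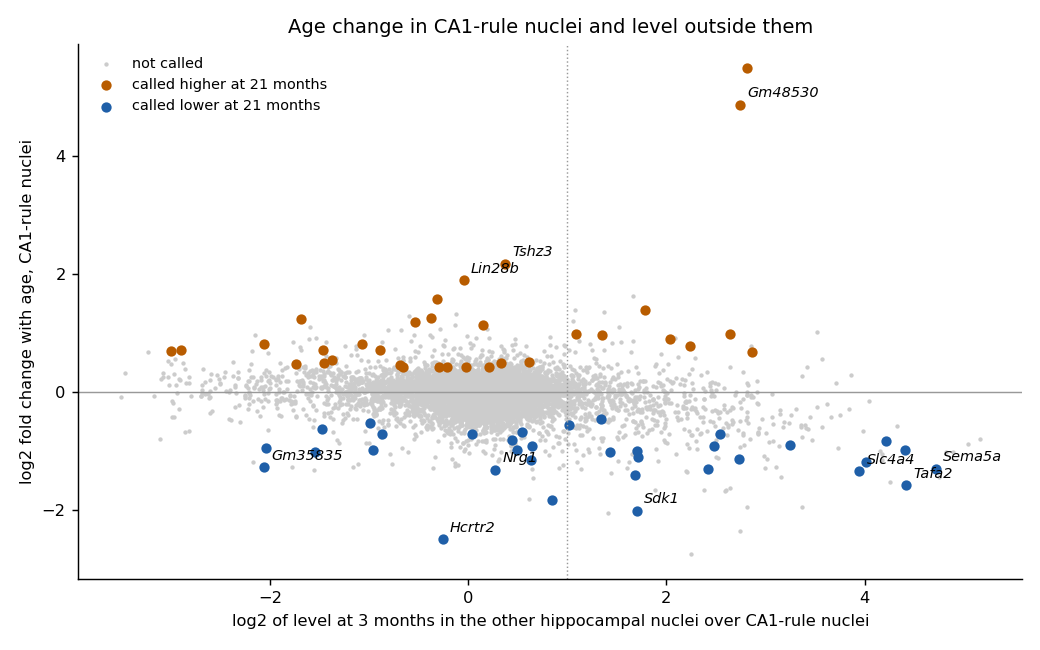
Log2 fold change with age in CA1-rule nuclei (vertical) against the log2 ratio of the level at 3 months in the remaining hippocampal nuclei to that in CA1-rule nuclei (horizontal), for 10702 genes with a mean of 5 CPM or more; blue and orange mark genes called lower and higher, and the dotted line is a ratio of 2. Of the 34 blue points, 18 lie right of that line, as do 9 of the 33 orange ones; both axes use the 3-month CA1 level.

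The remaining large risers were mostly expressed at low levels. St8sia6, a sialyltransferase, rose from 7.73 and 8.27 to 14.8 and 19.2 CPM (log2 fold change 1.14, SE 0.19, adjusted p = 0.0263, and 0.0818 and 0.0778 without the first and second 21-month libraries). Car2, the cytosolic carbonic anhydrase, rose from 16.5 and 20.6 to 37.3 and 31.7 CPM (0.98, adjusted p = 0.0101), and the adjusted p was 0.237 without the first 21-month library. Prrx1, a homeobox factor, rose by 1.39 (adjusted p = 0.0345, and 0.0896 and 0.111 without the first and second). The antisense transcript Gm20629, on chromosome 5, rose from 11.5 and 13.9 to 25.5 and 32.4 CPM (1.23, adjusted p = 0.00434), and 9530026P05Rik, which is antisense to Adamts9, by 0.99 (adjusted p = 0.0381, and 0.395 and 0.0553 without the first and second). In core nuclei 9530026P05Rik gave 1.64 (adjusted p = 0.00122), while in subiculum-marker nuclei it stood at 12.2 and 10.2 CPM at 3 months and at 1.19 and 0 CPM at 21 months, and the age effects of those nuclei and the others differed (adjusted p = 0.00213). Whether counting used strand is not given in the sources used here, so their reads cannot be told apart from those of genes they overlap. The mitochondrial gene mt-Cytb went from 5.41 and 4.93 to 12.4 and 10.6 CPM (1.25, adjusted p = 0.0342), with 1.01 (adjusted p = 0.353) in core nuclei and 1.11 (0.436) without the first 21-month library.

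Glutamate receptor genes changed in 2 places. Grin3a encodes an NMDA receptor subunit that lowers calcium entry, and it was the only called gene among 17 tested ionotropic receptor genes, where 0.244% of all genes were called lower. It fell from 36.4 and 42.2 to 14.2 and 20.5 CPM (log2 fold change -1.15, SE 0.16, adjusted p = 0.00682), and from 29.1 and 37.8 to 8.06 and 12.1 CPM in core nuclei. Without the first 21-month library its adjusted p was 0.179. The median of the 17 was 0.07 against -0.01 over all 14373 genes. Grin1, the obligate NMDA subunit, stood at 394 and 405 against 493 and 460 CPM with an adjusted p of 0.0835. Of 7 metabotropic receptors only Grm3 was called, falling from 100 and 78.8 to 44.2 and 40.4 CPM (adjusted p = 0.0119). The fold change was -0.99, and it was -0.87 and not called in core nuclei (adjusted p = 0.230), -1.07 and -0.93 without the first and second 21-month libraries (0.287 and 0.135) and -0.88 with doublets removed (0.311). Granule-rule nuclei held 79.1 to 119 CPM.

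GABA receptor and voltage-gated channel lists gave no call in all CA1-rule nuclei, where 0.473% of all tested genes were called. None of 14 GABA receptor genes passed, with a median log2 fold change of 0.05, and Gabra4 came nearest at 89.7 and 86.8 against 121 and 98.0 CPM (adjusted p = 0.125). None of 55 potassium and HCN channel genes passed, with a median of 0.07. Kcnip4, which encodes a Kv4 channel-interacting protein, stood at 13525 and 12966 against 16700 and 15686 CPM with an adjusted p of 0.0555. It was the only gene of that list called in core nuclei (12350 and 11626 against 15749 and 14197 CPM, adjusted p just under the threshold). That is 1 of 51 tested there, where 0.303% of all genes were called higher in core nuclei. None of 10 sodium channel and 39 calcium channel or calcium handling genes passed, with medians of 0.03 and 0.06. The whole table held 1603 genes at an unadjusted p under 0.05.

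Postsynaptic signalling genes had a median near that of all genes. Of 38 postsynaptic signalling genes none was called in all CA1-rule nuclei, where 0.473% of all genes were called. Their median was 0.07, where that of all genes was -0.01. In core nuclei Prkca, a protein kinase C isoform, was called at 911 and 938 against 1157 and 1115 CPM (log2 fold change 0.38, adjusted p = 0.0463), and Homer2, a postsynaptic scaffold, at 143 and 137 against 189 and 176 CPM (0.47, adjusted p = 0.0386). These were 2 of the 38, where 0.303% of all genes were called higher in core nuclei. None of 25 immediate early genes passed, with a median of -0.14, 18 of 25 below 0 and 11 of 25 lower in both 21-month libraries (44.0%, against 31.8% of all genes). Arc stood at 20.9 and 22.6 against 17.0 and 13.5 CPM (adjusted p = 0.341). Of 47 synaptic adhesion genes Tenm1, a teneurin, was called lower at 190 and 207 against 145 and 127 CPM (adjusted p = 0.0391, and 0.0780 in core nuclei, and 0.0818 and 0.111 without the first and second 21-month libraries), where 0.244% of all genes were called lower.

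Receptors for neuromodulators gave a call in only Hcrtr2, where 0.244% of all genes were called lower. Apart from Hcrtr2, none of the 33 tested receptor genes was called, and their median was -0.02. Chrm3, the muscarinic M3 receptor, stood at 2137 and 2176 CPM at 3 months and at 2434 and 2251 CPM at 21 months (log2 difference 0.20, SE 0.07, adjusted p = 0.316). Chrm1 stood at 50.5 and 53.2 against 48.8 and 50.9 CPM, and the alpha7 nicotinic gene Chrna7 at 140 and 135 against 128 and 107 CPM (adjusted p = 0.973 and 0.630). Chrm2 went from 8.24 and 4.30 CPM to 1.18 and 0.320 CPM, a log2 difference of -2.76 (SE 0.59) that missed the threshold (adjusted p = 0.0876).

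Among serotonin receptors, Htr1f stood at 357 and 386 against 511 and 398 CPM (adjusted p = 0.179) and Htr2a at 13.9 and 15.9 against 18.8 and 21.8 CPM (adjusted p = 0.238), both without overlap. Htr4 stood at 130 and 140 against 130 and 168 CPM, Htr1b at 12.6 and 12.5 against 11.6 and 11.9 CPM, and Htr2c at 44.1 and 24.5 against 49.6 and 96.7 CPM (adjusted p = 0.598). The cannabinoid receptor Cnr1, at 38.5 and 33.6 against 30.4 and 31.4 CPM, and the adenosine receptor Adora1, at 44.6 and 46.7 against 42.6 and 39.4 CPM, were lower in both old libraries with adjusted p of 0.733 and 0.862. The neuropeptide Y receptors Npy1r, Npy2r and Npy5r had log2 differences of -0.96, -0.48 and -0.21, none called. The remaining receptors at 5 CPM or more (Adra1a, Adra1b, Adra1d, Adrb1, Chrnb2, Crhr1, Oprm1 and Sstr2) had adjusted p between 0.446 and 0.939.

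Of the corticosteroid receptors, only the mineralocorticoid receptor passed the test. It was the only called gene of 15 tested in the corticosteroid list, where 0.230% of all genes were called higher. Nr3c2 (chromosome 8, 76899442 to 77245012) encodes the high-affinity receptor for corticosterone in the hippocampus. It stood at 1347 and 1289 CPM at 3 months and at 1709 and 1626 CPM at 21 months (log2 fold change 0.42, SE 0.07, adjusted p = 0.0332), with no overlap. The median nucleus held 12.1 and 11.6 UMIs per 10000 at 3 months and 15.2 and 14.6 at 21 months. In granule-rule nuclei it was 1265 to 1340 CPM in all 4 libraries, and the CA1 rise was larger by 0.34 (adjusted p = 0.00453). Over the 18 alternatives fitted, the CA1 log2 fold change of Nr3c2 ran from 0.36 to 0.48. The call was lost in 5 of them, both fits without a 21-month library included, which leave 1 library at that age.

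Nr3c1, the glucocorticoid receptor, stood at 146 and 130 against 129 and 128 CPM (log2 difference -0.03, SE 0.09, adjusted p = 0.945). Among genes that corticosteroids induce, Fkbp5 stood at 60.4 and 57.7 against 55.3 and 43.9 CPM, Sgk1 at 115 and 114 against 107 and 95.1 CPM, and Klf9 at 62.8 and 64.1 against 55.3 and 48.7 CPM. Zbtb16 stood at 354 and 372 against 397 and 340 CPM, Per1 at 17.5 and 15.7 against 14.6 and 13.5 CPM, Errfi1 at 25.2 and 21.1 against 21.3 and 25.0 CPM, and the co-chaperone Fkbp4 at 8.84 and 10.1 against 6.12 and 8.65 CPM. None of these was called, and 10 of the 15 tested genes of the list were lower in both 21-month libraries (66.7%, against 31.8% of all genes). The list's median was -0.15.

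Chaperone genes leaned downwards with a call in only Pdia6, where 0.244% of all genes were called lower. Pdia6 is a protein disulfide isomerase of the endoplasmic reticulum, and it fell from 33.0 and 33.6 to 18.4 and 20.2 CPM (log2 fold change -0.72, SE 0.13, adjusted p = 0.0386). The call was kept in core nuclei (adjusted p = 0.0353) and lost without the first 21-month library (0.384) and with DESeq2 (0.148). Of 41 tested chaperone genes 34 lay below 0, 23 were lower in both 21-month libraries (56.1%, against 31.8% of all genes) and none was higher in both. The median was -0.18, and -0.20 in core nuclei. Hspa5, the main Hsp70 of the endoplasmic reticulum, stood at 24.8 and 29.6 against 17.0 and 19.5 CPM (adjusted p = 0.186). Pdia3 stood at 48.7 and 50.6 against 31.2 and 36.8 CPM, Pdia4 at 11.1 and 10.7 against 4.74 and 6.09 CPM (both adjusted p = 0.113) and Hspa8 at 68.2 and 79.1 against 44.6 and 58.0 CPM (adjusted p = 0.145). In granule-rule nuclei the list's median was -0.29, with 2 of 44 genes called lower, against 0.747% of all genes tested in that class.

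The endoplasmic reticulum stress element, CCAAT followed by 9 bases of any kind and CCACG, is the textbook binding site through which unfolded-protein sensors act on such genes. It was searched on both strands in the 250 bases before each start site of RefSeq genes (GRCm38.p6) and was in 0.113% of 32851 such windows. Of 33 tested chaperone genes with a window, 7 held it (Calr, Canx, Creld2, Dnajc3, Hsp90b1, Hspa5 and Pdia6), and all 7 had a log2 fold change below 0 with a median of -0.31. The 26 without it had a median of -0.15, with 21 below 0. A match is a description of sequence, not a bound site, and a part of the element in these falls was not tested. The element is known from such genes, so its share among them is no finding of these data. Of the 7 only Pdia6 was called with age. The windows of the called gene and of Hspa5 are shown because both hold the element, in capitals, and both were lower in each 21-month library (Pdia6 at chr12:17266339-17266588 and Hspa5 at chr2:34771840-34772089, both plus strand).
Pdia6: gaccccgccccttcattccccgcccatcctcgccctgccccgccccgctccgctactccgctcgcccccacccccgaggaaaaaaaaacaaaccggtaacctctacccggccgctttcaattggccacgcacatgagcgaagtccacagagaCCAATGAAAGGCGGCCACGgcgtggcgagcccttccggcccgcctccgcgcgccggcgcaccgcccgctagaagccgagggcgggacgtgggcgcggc
Hspa5: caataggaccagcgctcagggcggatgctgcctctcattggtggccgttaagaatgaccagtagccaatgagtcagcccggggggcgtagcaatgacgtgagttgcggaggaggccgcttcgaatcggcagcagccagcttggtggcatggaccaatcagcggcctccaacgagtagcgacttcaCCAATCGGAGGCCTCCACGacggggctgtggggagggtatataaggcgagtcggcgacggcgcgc

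Clustered protocadherins leaned upwards. These adhesion proteins give each neuron a surface identity and lie in 3 tandem arrays on 1 chromosome, so members share sequence and reads between them can be uncertain. Pcdhb7 rose from 2.92 and 3.68 to 10.3 and 8.33 CPM (log2 fold change 1.57, SE 0.26, adjusted p = 0.0221, and 0.378 without the first 21-month library), and it was the only called member of 34 tested, where 0.230% of all genes were called higher. Of the 34, 31 lay above 0, where 6944 of all 14373 did, and 19 were higher in both 21-month libraries (55.9%, against 12% of all genes). Their median was 0.63. A member of low level could pass the count filter through 1 age alone, so these counts and the median are descriptions. The 56 listed members, tested or not, summed to 94.5 and 98.6 CPM at 3 months and to 136 and 154 CPM at 21 months. In core nuclei they summed to 94.5 and 101 against 135 and 159 CPM. Pcdhga12 stood at 6.78 and 7.42 against 11.6 and 10.2 CPM (adjusted p = 0.186) and Pcdhb17 at 4.29 and 4.93 against 7.50 and 9.93 CPM (adjusted p = 0.151). The median in granule-rule nuclei was 0.46, with 2 of 54 called higher, against 1.03% of all genes tested in that class.

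Housekeeping and immune lists lay near the overall median. None of 78 oxidative phosphorylation genes, 76 ribosomal protein genes and 35 proteasome genes was called, with medians of 0.02, -0.05 and 0.04. Over all tested genes 0.473% were called. None of 18 MHC class I and interferon genes, 19 circadian clock genes, 8 neurotrophin genes and 24 DNA damage genes was called either, with medians of 0.05, 0.06, 0.11 and -0.05. H2-D1, a class I gene, stood at 1.46 and 2.55 against 3.55 and 3.20 CPM (adjusted p = 0.484). Longer genes had slightly higher log2 fold changes (Spearman's rho 0.154 across 14360 genes, which are not independent replicates). The called genes were long in both directions, with a median length of 239630 bases for fallers and 113992 for risers against 26437 for all tested genes. Without the second 3-month library rho was 0.0616, and without the first 21-month library it was 0.0389.

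Set against granule-rule nuclei of the same libraries, the age effect differed in 319 of 17793 genes (1.79%), 168 of them higher in CA1 (0.944%) and 151 lower (0.849%). Of the 33 CA1 risers 16 differed, and of the 35 fallers 18, each with the CA1 change the larger in its own direction. These genes were chosen by their change in the same CA1 sums, which favours a larger CA1 change, so the counts are descriptions. Called in granule-rule nuclei alone and in the same direction were 10 of the risers and 6 of the fallers, and 2 fallers were called in the opposite direction, where that class had 322 calls of 18082 genes (1.78%), 187 higher (1.03%) and 135 lower (0.747%). Genes whose age effect was higher in CA1 included Astn2 (difference 0.88, adjusted p = 1.83e-04), Kctd8 (1.35, adjusted p = 1.83e-04) and Car2 (0.81, adjusted p = 0.00452). Of these, Kctd8 was not called with age in core nuclei. Lin28b, Gm20629 (-0.64, adjusted p = 0.102) and Pdia6 (-0.11, adjusted p = 0.906) did not pass the test of a difference.

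**Figure D5:**
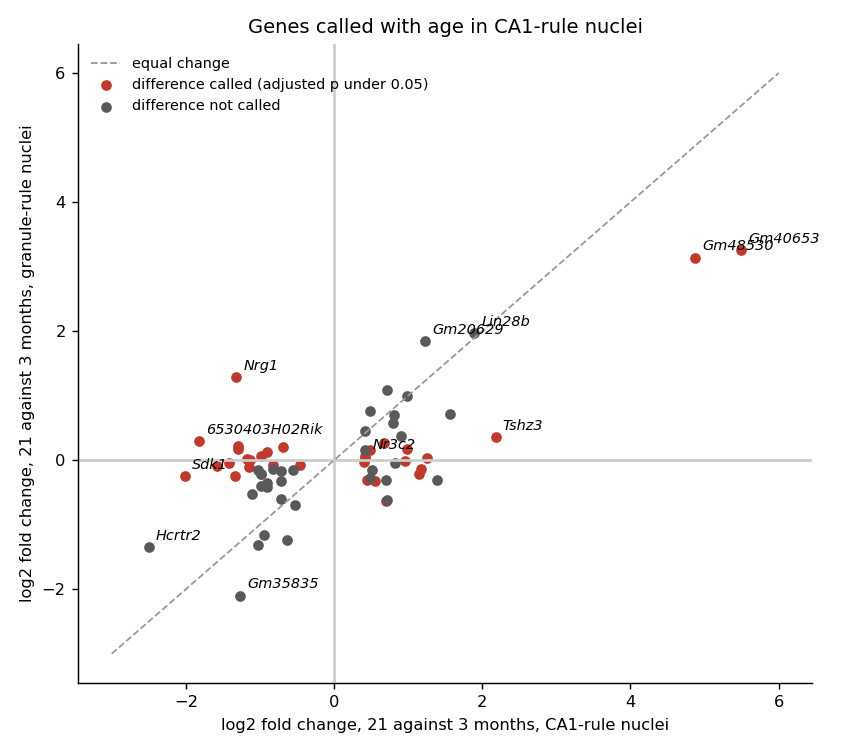
Log2 fold change at 21 against 3 months in CA1-rule nuclei (horizontal) and granule-rule nuclei (vertical) for 67 of the 68 genes called in CA1-rule nuclei; 2600014E21Rik, at 2.75 and 3.34 CPM at 3 months and with no UMI at 21 months, is not drawn. The 33 red points differ between the classes (adjusted p under 0.05), among them Nrg1 at -1.32 and 1.29, and Lin28b lies close to the dashed line of equal change. All points were chosen by their change in CA1-rule nuclei, which favours a larger CA1 change.

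Against CA3-rule nuclei the age effect differed in 63 of 15879 genes (0.397%), 23 higher in CA1 (0.145%) and 40 lower (0.252%). In CA3-rule nuclei alone 3 of 15349 genes were called (0.0195%), 2 higher (0.0130%) and 1 lower (0.00652%), both of the higher ones also CA1 risers. Of the CA1 risers 5 differed and of the fallers 11, again with the CA1 change the larger, which the choice of genes again favours. Among the fallers were Tafa2 (-1.78, adjusted p = 5.30e-05), Sema5a (-1.61, adjusted p = 9.10e-04), Shisa9 (-1.16, adjusted p = 9.10e-04) and Plppr1 (-1.30, adjusted p = 0.00245). Without single libraries this comparison called 100 to 171 genes.

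Female and male CA1-rule nuclei were compared within the same libraries. No gene of 11698 had a called difference in age effect (percentage called 0, smallest adjusted p = 0.535), 589 had an unadjusted p under 0.05, and 85 of 23154 were called with no low-count filter. Male nuclei numbered 108, 238, 87 and 23, and alone they gave no called age effect, with 514 genes at an unadjusted p under 0.05. Nrg1 stood at 768 and 647 against 171 and 322 CPM in female nuclei and at 664 and 540 against 275 and 114 CPM in male nuclei. Lin28b stood at 14.4 and 11.3 against 59.5 and 62.4 CPM in female and at 32.3 and 16.1 against 47.4 and 53.9 CPM in male nuclei. In both genes the ages did not overlap within either sex, but Nrg1 was not called in female nuclei alone (adjusted p = 0.327). Of the 31 named genes called with age, 29 were without overlap in the same direction in female nuclei and 23 in male nuclei. Car2, at 21.2 and 27.8 against 36.3 and 4.62 CPM, was among those that overlapped in male nuclei. The genes were called in sums that include these nuclei, so the counts are descriptions. The share over all genes within a sex is not given here.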

How the data were processed

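The authors deposited a matrix of raw UMI counts per gene and barcode for each library. Cell Ranger 4.0.0 and the mm10 build stand in the submitters' processing notes, and Cell Ranger 6.1.2 stands in the headers of the hippocampal matrices. Whether intronic reads were counted is not given in the sources used here. Counts were summed over CA1-rule nuclei per library and tested with edgeR 4.0.16 (quasi-likelihood, TMM scaling, filterByExpr, R 4.3.3) with Benjamini-Hochberg adjustment at 0.05. All adjusted p-values come from these fits. Differences between classes, subsets or sexes used an interaction model with the library as a block. DESeq2 1.42.0 was an alternative, and Scrublet in scanpy 1.11.5 called doublets at its automatic threshold, except in the second 3-month library, where that marked 0.129% and the expected rate was used instead (15.8% called, against 6.57%, 4.57% and 2.50% in the others). The procedure was tested on simulated data. Permutation tests used scipy 1.17.1.

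Genes were named when called, without overlap between ages and at 5 CPM or more: the 12 largest changes and the 5 smallest p-values in each direction, called list members, and neuromodulator and corticosteroid genes as values. For differences the 5 largest each way were named within the same limits. Other genes given as examples (such as Astn2, Brinp3, Grin1, Prkca, Homer2 and the genes of subiculum-marker nuclei) were chosen after their values were seen. Members and lists were chosen with earlier results of these data known. The depth per library and the counting intervals of shares are given with the results. Gene positions are from GENCODE on GRCm38, the same assembly as mm10. The 4 libraries of caudate putamen were not analysed here. Values of another CA1 marker gene are not reported here.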

Additional observations from a re-analysis of the deposited data

Results flagged for a closer look

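For 20 gene and class pairs the age effect differed between CA1-rule nuclei and another class by the interaction test (edgeR, adjusted p under 0.05), the 5 largest in each direction within the limits on level and overlap used for named genes. Each difference is a log2 fold change at 21 against 3 months in CA1-rule nuclei minus that in the other class.

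Against granule-rule nuclei the effect was higher in CA1 for Gm40653 (2.36), Ntn1 (1.92), Tshz3 (1.81), Gm48530 (1.75) and Gm5149 (1.65). Tshz3 stood highest in subiculum-marker nuclei (789 and 837 CPM at 21 months), and in core nuclei its rise of 1.28 was not called (adjusted p = 0.0551). Gm40653 and Gm48530 were called higher in granule-rule nuclei too, at 16.5 and 20.4 CPM and at 182 and 178 CPM at 21 months. Ntn1, the guidance cue netrin 1, and Gm5149 were not called in CA1-rule nuclei (adjusted p = 0.136 and 0.483). The Gm5149 difference came with granule-rule levels of 2.19 and 1.39 CPM at 3 months and 0.544 and 0.299 CPM at 21 months.

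The effect was lower in CA1 for Nrg1 (-2.61), 6530403H02Rik (-2.13), Zfp804b (-2.10), Camk2d (-2.03) and Gm12002 (-1.89). Camk2d, a calcium/calmodulin kinase subunit, had a CA1 log2 difference of -0.28 (adjusted p = 0.610). In granule-rule nuclei it rose from 37.2 and 31.7 to 111 and 112 CPM (log2 fold change 1.75, adjusted p = 5.40e-05). Zfp804b and Gm12002 were called higher in granule-rule nuclei (1.14 and 1.10) and not called in CA1-rule nuclei (adjusted p = 0.115 and 0.33).

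Against CA3-rule nuclei the effect was higher in CA1 for Myo3b (2.48), Gm48530 (1.81), Gm5149 (1.53), Efnb2 (1.22) and Car2 (1.14). Myo3b, Gm5149 and Efnb2 were not called in CA1-rule nuclei. CA3-rule nuclei held Efnb2, an ephrin ligand, at 15.1 and 15.2 CPM at 3 months and at 6.57 and 4.32 CPM at 21 months. The effect was lower in CA1 for Chrm2 (-2.55), Hcrtr2 (-2.19), 6530403H02Rik (-1.96), Tmem163 (-1.90) and Shisal1 (-1.78). Of these, Hcrtr2 and 6530403H02Rik were called in CA1-rule nuclei, and CA3-rule nuclei held 6530403H02Rik at 104 to 127 CPM in all 4 libraries.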

How the results depend on the processing

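The age effect (68 genes called) gave 72 with median-ratio scaling and 72 with DESeq2. It gave 400 with no low-count filter, of which 33.2% were higher, and 135 with equal numbers of nuclei. It gave 21 with nuclei thinned to 4000 UMIs each, which leaves less power, 123 in female nuclei (33.3% higher) and 0 in male nuclei. It gave 62 with doublets removed and 53 with 6 or more marker UMIs, of which 34.0% were higher. Leaving out each library in turn gave 21 to 208, the lowest without the first 21-month library. A replicate block gave 195. The labels give same-numbered libraries a shared number and name no pairing, and their deviations correlated at 0.0192 across genes. That value cannot exclude a shared batch. The main fit was planned without a block. Of alternatives chosen after seeing the data, leaving out nuclei with subiculum markers gave 124. Of 31 named genes called, 31 kept their call with either 3-month library left out, 11 without the first and 23 without the second 21-month library, 8 of 28 when thinned, 27 with doublets removed and 21 with 6 or more marker UMIs. None of these 31 reversed under an alternative, and Brinp3, called among the 68 but not one of the 31, went from 0.42 to -0.20 (log2) in core nuclei. The difference from granule-rule nuclei (319) gave 558 with no filter and 277 to 415 with a library left out. That from CA3-rule nuclei (63) gave 241 and 100 to 171. The difference between sexes (0) gave 85 with no filter. The correlation with gene length (0.154) ranged from 0.0389 to 0.197 with a library left out. The cause of these shifts was not tested. The 21-month sums of 5064777 and 3122096 UMIs limit what could be detected in low genes.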
